A study of Homo sapiens with 11 samples.

Results

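REST, its corepressor RCOR1 and 8 regulators of neuronal RNA processing were followed across 3 human lung cell lines. The 10 genes were chosen by symbol and not by a cut on their values, but with earlier results of these data known. They are REST, RCOR1, SRRM4, PTBP1, PTBP2, NOVA1, NOVA2, ELAVL2, ELAVL3 and ELAVL4, out of 57815 genes listed in each RNA table. Small cell lung carcinoma, a tumour with neuroendocrine features, is represented by the established lines DMS153 and H209, and noncancerous lung by the fibroblast line MRC5. DMS153 had 3 RNA-seq libraries, H209 had 2 and MRC5 had 3, and each line had 1 library of Hi-C, which maps contacts within the genome. The labels name no treatment, the same serum-containing medium is given for all lines, and each line stands for its type as a single line. The replicates are numbered but are not said to come from separate cultures, so the p-values below measure the spread between libraries, which may be technical.

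REST is a zinc finger repressor that binds a DNA element known as RE1 beside many neuronal genes and recruits RCOR1 (CoREST), histone deacetylases, a histone demethylase and histone methyltransferases. It is abundant in most non-neuronal cells and is lost as neurons mature. SRRM4 promotes the inclusion of neuronal microexons and is itself a REST target, and an SRRM4-dependent exon in the REST transcript yields a truncated protein with weaker repressor activity. PTBP1 represses neuronal exons in most cell types, including an exon of PTBP2 whose skipping leads to decay of the PTBP2 transcript. NOVA1 and NOVA2 control exon choice in neurons, and ELAVL2, ELAVL3 and ELAVL4 (the neural Hu proteins HuB, HuC and HuD) bind AU-rich RNA and affect stability and splicing.

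To show what REST reads, the RE1 core was searched in the promoter windows of RefSeq (assembly GRCh38.p14, 250 bases before to 50 bases after each start), as the letters CAGCACC, then any 2 bases, then GGACAG, on both strands. Its left part, CAGCACC, and right part, GGACAG, lie within it and were also searched alone. The whole core occurred in 18 of 35116 windows (0.0513%), the left part in 7.75% and the right part in 20.5%. Windows were given for 9 of the 10 members. None of their 24 windows held the whole core, 3 held the left part (in SRRM4, PTBP1 and NOVA1) and 6 the right part (in REST, RCOR1, ELAVL2 and ELAVL4). Windows of a gene can overlap, and the same ELAVL2 match was counted in overlapping windows. Among 35 classical REST target genes, 22 had windows, and the whole core was found in SYN1, which encodes the synaptic vesicle protein synapsin I, and in GRIA2, which encodes a glutamate receptor subunit. These 2 windows are printed to show the element, and those of REST, SRRM4 and NOVA1 to show what the members carry. Capitals mark the whole core in SYN1 and GRIA2 and the matched part in the members. The SYN1 window (chrX:47619808-47620107, minus strand) has the core on the strand of the gene, starting at base -231 from the start of the gene, and the GRIA2 window (chr4:157220369-157220668, plus strand) has it on the opposite strand at -227. The REST window (chr4:56908660-56908959, plus strand) has the right part at -170, the SRRM4 window (chr12:118981291-118981590, plus strand) the left part on the opposite strand at 42 and the NOVA1 window (chr14:26597984-26598283, minus strand) the left part at 29. A match of letters is a description, and REST binding was not measured in these samples. The search took exact letters within these windows only, so a window without the core does not show that a gene lacks an RE1.
SYN1 promoter: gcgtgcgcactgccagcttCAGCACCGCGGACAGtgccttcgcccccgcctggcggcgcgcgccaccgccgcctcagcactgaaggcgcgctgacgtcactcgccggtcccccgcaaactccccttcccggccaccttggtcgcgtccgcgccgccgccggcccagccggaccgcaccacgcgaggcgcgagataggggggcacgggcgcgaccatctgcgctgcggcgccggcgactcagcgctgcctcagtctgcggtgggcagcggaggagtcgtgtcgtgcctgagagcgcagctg
GRIA2 promoter: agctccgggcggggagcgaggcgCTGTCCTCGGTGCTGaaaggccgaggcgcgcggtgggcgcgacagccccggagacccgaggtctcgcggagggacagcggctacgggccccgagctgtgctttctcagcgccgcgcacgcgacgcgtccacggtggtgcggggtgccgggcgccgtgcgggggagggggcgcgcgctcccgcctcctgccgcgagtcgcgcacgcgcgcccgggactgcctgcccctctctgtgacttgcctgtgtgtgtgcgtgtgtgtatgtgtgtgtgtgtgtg
REST promoter: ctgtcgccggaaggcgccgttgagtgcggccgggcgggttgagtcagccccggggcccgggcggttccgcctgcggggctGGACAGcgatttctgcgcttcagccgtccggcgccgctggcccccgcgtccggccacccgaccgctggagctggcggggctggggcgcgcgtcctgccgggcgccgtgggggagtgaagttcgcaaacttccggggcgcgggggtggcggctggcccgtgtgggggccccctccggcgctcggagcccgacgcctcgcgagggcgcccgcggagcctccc
SRRM4 promoter: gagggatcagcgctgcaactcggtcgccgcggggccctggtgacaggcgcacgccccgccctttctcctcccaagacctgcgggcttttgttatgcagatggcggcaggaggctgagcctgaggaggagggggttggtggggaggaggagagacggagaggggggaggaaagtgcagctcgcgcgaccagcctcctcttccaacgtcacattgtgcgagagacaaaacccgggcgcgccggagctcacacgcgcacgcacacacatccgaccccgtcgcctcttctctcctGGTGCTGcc
NOVA1 promoter: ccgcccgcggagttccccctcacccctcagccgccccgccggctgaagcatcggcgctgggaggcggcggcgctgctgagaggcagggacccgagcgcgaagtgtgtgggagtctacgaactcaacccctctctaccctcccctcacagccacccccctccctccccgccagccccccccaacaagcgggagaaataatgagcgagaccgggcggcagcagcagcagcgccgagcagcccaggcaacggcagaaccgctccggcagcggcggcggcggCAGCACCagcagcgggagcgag

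The RNA tables give FPKM, a level corrected for transcript length and for the size of the library, and no counts. Genes at an FPKM of at least 1 numbered 16462 to 16580 in DMS153, 15963 to 16053 in H209 and 13425 to 13560 in MRC5. Over the genes at 1 to 10 FPKM, the deposited interval reached a median of 10.6% to 13.6% of the value to either side, depending on the library. The DMS153 libraries stood apart, with 46.3% to 48.9% of their summed FPKM in small RNA and mitochondrial genes, against 12.9% to 13.3% in H209 and 11.3% to 12.6% in MRC5. All 6 neuroendocrine markers stood at 1 FPKM or more in every DMS153 and H209 library, with sums of 1006 to 1077 and 1040 to 1052 FPKM, whereas none did in MRC5, at 0.0474 to 0.167. All 5 epithelial markers did so in DMS153 and H209, and 2 of 5 in MRC5. All 7 fibroblast markers did so in MRC5, with a sum of 7451 to 8295 FPKM, against 6.98 to 8.70 in DMS153 and 27.2 to 32.3 in H209. None of 4 leukocyte markers reached 1 FPKM in every library of a line, and their sum was at most 0.307 in any library. Differences were tested with limma on log2(FPKM + 1) over all 8 libraries and the 19066 genes with at least 1 FPKM in at least 2 of them. Calls required a log2 difference of 1 or more in size together with a p below 0.05 after Benjamini-Hochberg adjustment. The comparisons with MRC5 share the MRC5 libraries. In bulk RNA, fewer cells of a type and less RNA per cell cannot be told apart.

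REST was high in the fibroblasts, low in H209 and lower still in DMS153. REST (ENSG00000084093.11, chromosome 4, 57774075 to 57802010 in hg19) stood at 0.0568, 0.0838 and 0.00538 FPKM in the DMS153 libraries, at 0.788 and 0.441 in the H209 libraries, and at 9.17, 7.11 and 7.79 in the MRC5 libraries. The libraries of the 3 lines did not overlap. In all 3 DMS153 libraries the deposited interval of REST reached down to 0, with upper bounds of 0.0724 to 0.213 FPKM, so expression in DMS153 was not distinguishable from none at this depth. In H209 the interval excluded 0 in both libraries, with lower bounds of 0.207 to 0.472 FPKM. REST fell by 3.10 ± 0.11 log2 units in DMS153 relative to MRC5 (SE; limma adjusted p = 6.41e-09) and fell by 2.48 ± 0.12 in H209 relative to MRC5 (limma adjusted p = 8.04e-08). DMS153 against H209 gave a log2 difference of -0.61 ± 0.12 (limma adjusted p = 0.00172), under the size needed for a call. That difference depends on the pseudocount of 1, and was -2.26 with 0.1 and -1.01 with 0.5, both called. It was also called with TPM scaling. REST passed the filter on low values only through the 3 MRC5 libraries.

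RCOR1, the corepressor that bridges REST to the demethylase KDM1A and to histone deacetylases, did not follow REST. RCOR1 (ENSG00000089902.8, chromosome 14, 103058998 to 103196913) stood at 7.31, 7.66 and 7.19 FPKM in DMS153, at 19.7 and 16.8 in H209, and at 8.64, 6.41 and 7.78 in MRC5. Both H209 libraries lay above all others, and the DMS153 and MRC5 libraries overlapped. The log2 difference was -0.03 ± 0.11 between DMS153 and MRC5 (limma adjusted p = 0.801), 1.16 ± 0.12 between H209 and MRC5 (limma adjusted p = 1.14e-05) and -1.19 ± 0.12 between DMS153 and H209 (limma adjusted p = 1.73e-05). The rise in H209 relative to MRC5 was under the size of a call with the libraries scaled by median ratios, at 0.82, or quantile normalised, at 0.75.

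**Figure D1:**
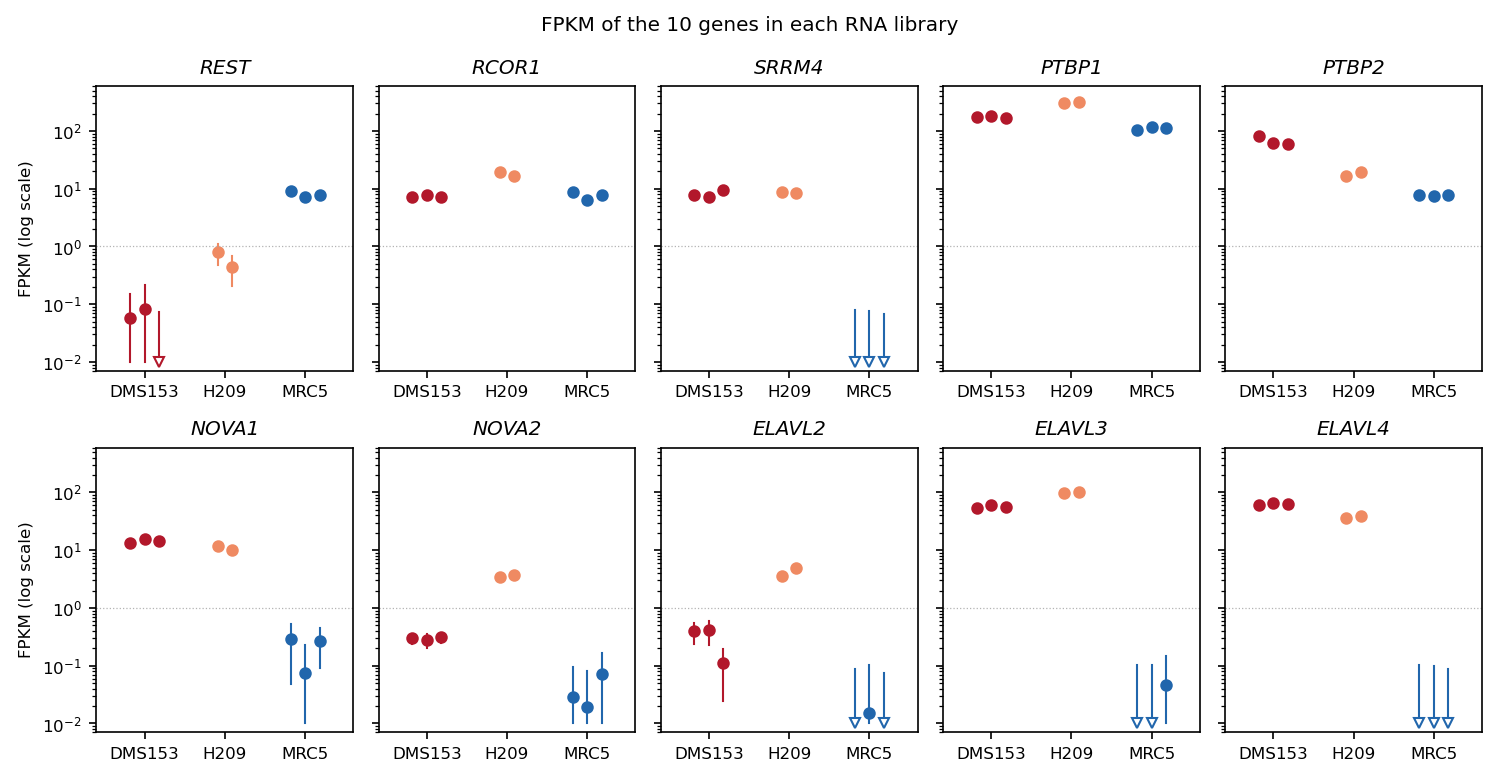
FPKM (log axis) of the 10 genes in each RNA library of DMS153, H209 and MRC5, 1 point per library with the deposited interval as a line; values under 0.01 are drawn as open triangles at 0.01, and the dotted line marks 1 FPKM. REST is above 1 FPKM only in MRC5, while SRRM4, NOVA1, ELAVL3 and ELAVL4 are above it in both carcinoma lines and below it in MRC5.

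SRRM4, the activator of neuronal microexons, showed the opposite pattern to REST. SRRM4 (ENSG00000139767.4, chromosome 12, 119419300 to 119600856) stood at 7.88, 7.27 and 9.47 FPKM in DMS153 and at 8.85 and 8.54 in H209, against 0.000331, 5.55e-06 and 2.35e-05 in MRC5. The deposited interval reached 0 in every MRC5 library, with upper bounds of at most 0.0778 FPKM. SRRM4 rose by 3.20 ± 0.09 log2 units in DMS153 (limma adjusted p = 1.74e-09) and by 3.28 ± 0.11 in H209 (limma adjusted p = 4.4e-09), both relative to MRC5. The libraries of DMS153 and H209 overlapped, with a log2 difference of -0.08 ± 0.11 (limma adjusted p = 0.503). For genes this close to 0 in MRC5, such as SRRM4 and the ELAVL genes, the log2 differences from MRC5 depend on the pseudocount and understate the ratio. The tables hold gene levels only, so neither the neuronal exon of REST nor any microexon could be measured.

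PTBP1 was the most abundant of the 10 genes in every library and was not lower in the carcinoma lines. PTBP1 (ENSG00000011304.12, chromosome 19, 797075 to 812327) stood at 173.1, 184.4 and 166.7 FPKM in DMS153, at 302.7 and 311.3 in H209, and at 102.0, 118.2 and 112.4 in MRC5, so that the lines were ordered H209, DMS153, MRC5 with no overlap. It rose by 1.46 ± 0.08 log2 units in H209 relative to MRC5 (limma adjusted p = 1.51e-07). The log2 difference was 0.65 ± 0.07 between DMS153 and MRC5 (limma adjusted p = 1.88e-05) and -0.81 ± 0.08 between DMS153 and H209 (limma adjusted p = 1.8e-05), both under the size of a call. The second was called when libraries were scaled to TPM (-1.46) or quantile normalised (-1.06).

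PTBP2, the paralog of PTBP1 that takes its place in developing neurons, was highest in DMS153. PTBP2 (ENSG00000117569.14, chromosome 1, 97187221 to 97289294) stood at 80.4, 62.5 and 60.2 FPKM in DMS153, at 16.8 and 19.6 in H209, and at 7.73, 7.43 and 7.93 in MRC5. No 2 lines overlapped. PTBP2 rose by 2.97 ± 0.11 log2 units in DMS153 relative to MRC5 (limma adjusted p = 8.52e-09), an 8.80-fold ratio of mean FPKM, and by 1.14 ± 0.12 in H209 relative to MRC5 (limma adjusted p = 2.01e-05), a 2.36-fold ratio. The H209 rise was under the size of a call with median ratio scaling, at 0.80, or quantile normalisation, at 0.73. DMS153 was 1.83 ± 0.12 log2 units above H209 (limma adjusted p = 1.57e-06).

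The balance of both PTBP genes therefore separated DMS153 from the other lines. PTBP2 FPKM divided by PTBP1 FPKM was 0.465, 0.339 and 0.361 in the DMS153 libraries, 0.0555 and 0.0628 in the H209 libraries, and 0.0757, 0.0628 and 0.0705 in the MRC5 libraries. The ratio averaged 0.388 ± 0.0671 in DMS153 (SD, n = 3), 0.0591 ± 0.00518 in H209 (n = 2) and 0.0697 ± 0.00650 in MRC5 (n = 3), so all DMS153 libraries lay above all others. The log2 ratio, with 1 added to each FPKM, was 2.32 higher in DMS153 than in MRC5 (exact permutation test, 2-sided, p = 0.1, the smallest that 3 against 3 libraries allow). It was 2.64 higher in DMS153 than in H209 (exact permutation test, p = 0.2, the smallest for 3 against 2) and differed by -0.33 between H209 and MRC5 (exact permutation test, p = 0.2), so none of these tests could pass 0.05. The sum of both genes in FPKM was 242 ± 13.9 for DMS153, 325 ± 8.06 for H209, and 119 ± 8.15 for MRC5 (SD, n = 3, 2 and 3). How reads shared by the paralogs were assigned is not given in the sources used here.

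**Figure D2:**
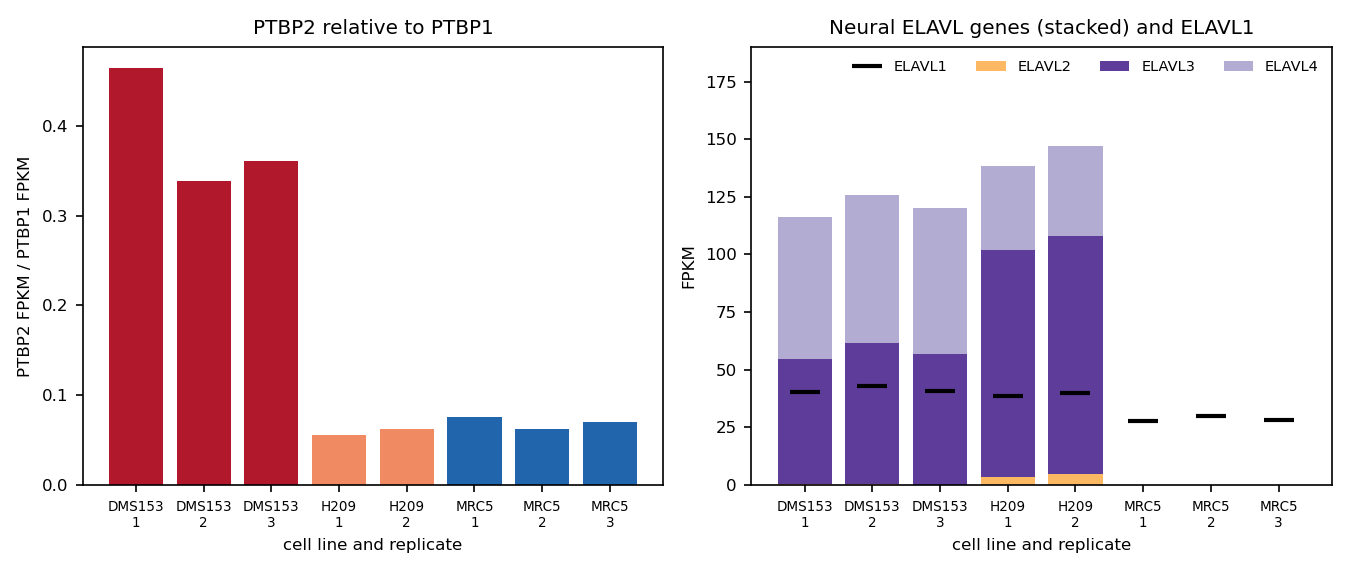
Left, PTBP2 FPKM divided by PTBP1 FPKM in each RNA library, 1 bar per library; right, FPKM of ELAVL2, ELAVL3 and ELAVL4 stacked for each library, with ELAVL1 as a black dash. The 3 DMS153 ratios, 0.339 to 0.465, lie above all others, and the stacked neural ELAVL genes exceed ELAVL1 in both carcinoma lines and are near 0 in MRC5.

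The NOVA paralogs differed from each other in the carcinoma lines. NOVA1 (ENSG00000139910.15, chromosome 14, 26912299 to 27066960) stood at 13.2, 15.6 and 14.7 FPKM in DMS153 and at 11.7 and 10.1 in H209, against 0.286, 0.0740 and 0.272 in MRC5. It rose by 3.68 ± 0.10 log2 units in DMS153 (limma adjusted p = 1.23e-09) and by 3.30 ± 0.12 in H209 (limma adjusted p = 7.24e-09) relative to MRC5, and DMS153 against H209 gave 0.38 ± 0.12 (limma adjusted p = 0.0155), not called. NOVA2 (ENSG00000104967.6, chromosome 19, 46436992 to 46476804) stood at 0.297, 0.276 and 0.308 FPKM in DMS153, at 3.49 and 3.69 in H209, and at 0.0288, 0.0196 and 0.0723 in MRC5. Only the H209 libraries exceeded 1 FPKM, and the lines did not overlap. NOVA2 rose by 2.14 ± 0.07 log2 units in H209 relative to MRC5 (limma adjusted p = 4.85e-09) and was lower in DMS153 than in H209, at -1.83 ± 0.07 (limma adjusted p = 4.98e-08). For DMS153 against MRC5 the difference was 0.31 ± 0.06 (limma adjusted p = 0.00111), not called, and 1.51 with a pseudocount of 0.1, called.

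ELAVL3 and ELAVL4 were among the most abundant members in both carcinoma lines. ELAVL3 (ENSG00000196361.5, chromosome 19, 11562141 to 11591861) stood at 54.4, 61.1 and 56.7 FPKM in DMS153 and at 98.3 and 103.1 in H209, against 0.000303, 0.00296 and 0.0464 in MRC5. ELAVL4 (ENSG00000162374.12, chromosome 1, 50513686 to 50669458) stood at 61.4, 64.4 and 63.3 FPKM in DMS153 and at 36.3 and 39.3 in H209, against 1.10e-05, 8.84e-05 and 2.68e-05 in MRC5. Both genes separated the 3 lines without overlap, in opposite order between the carcinoma lines. ELAVL3 rose by 5.84 ± 0.07 log2 units in DMS153 (limma adjusted p = 5.8e-12) and by 6.64 ± 0.07 in H209 (limma adjusted p = 1.99e-11) relative to MRC5. ELAVL4 rose by 6.0 ± 0.06 in DMS153 (limma adjusted p = 3.53e-12) and by 5.28 ± 0.07 in H209 (limma adjusted p = 3.35e-11). Between the carcinoma lines neither was called, at -0.80 ± 0.07 for ELAVL3 (limma adjusted p = 1.21e-05) and 0.72 ± 0.07 for ELAVL4 (limma adjusted p = 1.5e-05). With TPM scaling ELAVL3 was called lower in DMS153 than in H209, at -1.45.

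ELAVL2 was the least abundant neural ELAVL gene in both carcinoma lines. ELAVL2 (ENSG00000107105.10, chromosome 9, 23690102 to 23826335) stood at 0.397, 0.413 and 0.110 FPKM in DMS153, at 3.57 and 4.82 in H209, and at 0.000335, 0.0154 and 8.51e-05 in MRC5. It rose by 2.36 ± 0.13 log2 units in H209 relative to MRC5 (limma adjusted p = 1.8e-07) and was lower in DMS153 than in H209, at -1.99 ± 0.13 (limma adjusted p = 1.41e-06). DMS153 against MRC5 gave 0.37 ± 0.12 (limma adjusted p = 0.0159), not called, and 1.84 with a pseudocount of 0.1, called. ELAVL2 and NOVA2 thus shared the order H209, DMS153, MRC5, and both passed the filter on low values only through the 2 H209 libraries. Without either H209 library they were not tested, and the count of members called lower in DMS153 than in H209 was then 1 in place of 3.

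Set against ELAVL1 (HuR), the widely expressed family member, the neural ELAVL genes were in excess in the carcinoma lines. Their summed FPKM averaged 120.7 ± 4.93 in DMS153, 142.7 ± 6.36 in H209 and 0.0219 in MRC5, while ELAVL1 averaged 41.3 ± 1.31, 39.1 ± 0.849 and 28.7 ± 1.22 in the same lines (SD, n = 3, 2 and 3). ELAVL3 made up 47.5% of the neural sum in DMS153 and 70.6% in H209, and ELAVL4 52.2% and 26.5%.

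**Figure D3:**
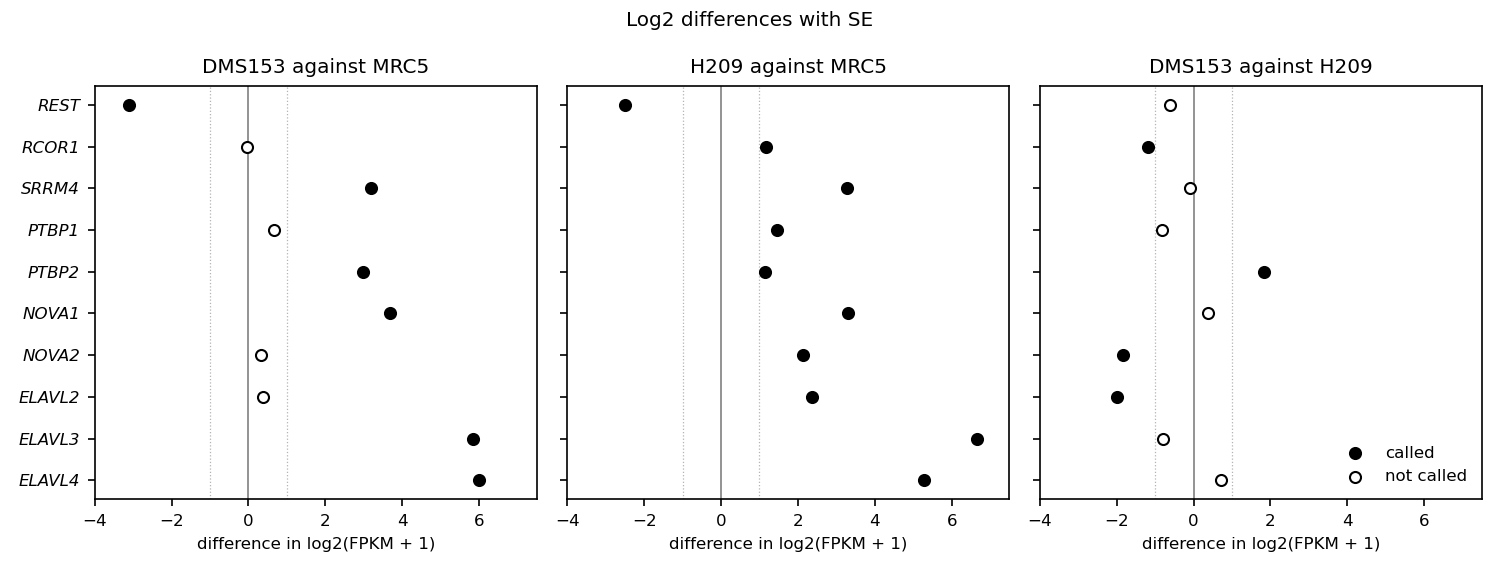
Difference in log2(FPKM + 1) of the 10 genes for the 3 comparisons, each carcinoma line against MRC5 and then DMS153 against H209; bars show the SE and are mostly hidden by the points, filled points were called, and dotted lines mark differences of -1 and 1. REST is the only gene called lower than MRC5, and PTBP2 the only one called higher in DMS153 than in H209.

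Counted together, 5 of 10 members were called higher in DMS153 than in MRC5 (SRRM4, PTBP2, NOVA1, ELAVL3 and ELAVL4), where 34% of all genes tested were, and 1 lower (REST), where 16.4% were, so that 6 of 10 were called in either direction beside 50.4% of all genes. In H209 against MRC5, 9 were called higher (all except REST) beside 33% of all genes, and 1 lower (REST) beside 14.9%, or 10 of 10 in either direction beside 47.9%. Between DMS153 and H209, 1 was called higher (PTBP2) beside 13.8% and 3 lower (RCOR1, NOVA2 and ELAVL2) beside 13.4%, or 4 of 10 in either direction beside 27.1%. The median gene lay 0.44 log2 units above MRC5 in DMS153, 0.46 above MRC5 in H209 and at -0.04 for DMS153 against H209. All 10 passed the filter on low values, 7 of them only through the lines in which they were high, so these counts are a description. The split of all genes depended on scaling: 6489 were called higher and 3123 lower in DMS153 against MRC5, and 5750 and 4527 with TPM scaling or 4558 and 4340 with quantile normalisation. For H209 against MRC5 it was 6300 and 2839, and 4946 and 3643 with median ratios or 4351 and 3747 with quantile normalisation. For DMS153 against H209 it was 2622 and 2547, and 1814 and 6630 with TPM scaling.

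Most genes of the corepressor machinery that REST recruits were not lower in the carcinoma lines. Of 20 corepressors and cofactors, 12 were called higher and 1 lower in DMS153 against MRC5 (list median 1.20, all genes 0.44), 8 higher and 1 lower in H209 against MRC5 (0.81, all genes 0.46), and 1 higher and 1 lower in DMS153 against H209. Of all genes tested, 34% were called higher and 16.4% lower in DMS153 against MRC5, and 33% and 14.9% in H209 against MRC5. Between DMS153 and H209 these shares were 13.8% and 13.4%. With TPM scaling 7 were called higher in DMS153 against MRC5, and 7 were called lower in DMS153 against H209. With median ratios 5 were called higher in H209 against MRC5. RCOR2, the CoREST paralog, averaged 10.7 ± 0.406 FPKM in DMS153 and 36.9 ± 4.30 in H209, against 1.16 ± 0.144 in MRC5, with log2 differences from MRC5 of 2.44 and 4.13 and of -1.69 between DMS153 and H209. EHMT1, a histone H3 lysine methyltransferase, averaged 58.2 ± 3.87 FPKM in DMS153 against 16.6 ± 1.28 in MRC5, and RCOR3, another CoREST paralog, 56.5 ± 2.65 against 16.1 ± 1.42. In H209, EHMT2 averaged 59.7 ± 4.75 FPKM against 12.5 ± 1.94 in MRC5, and the deacetylase HDAC1 165 ± 11.4 against 44.1 ± 1.47. The only one called lower than in MRC5 was CTDSPL, a small phosphatase that acts with REST on neuronal genes. It stood at 2.55 ± 0.0393 FPKM in DMS153 and 3.30 ± 0.550 in H209, against 12.4 ± 0.652 in MRC5 (log2 differences of -1.92 and -1.65). CTBP1 and CTDSP1 in both lines and SMARCE1 in H209 averaged lower than in MRC5 without a call. SMARCE1, a chromatin remodelling subunit, was the member called higher in DMS153 (212.5 ± 13.2 FPKM) than in H209 (83.4 ± 4.76), but not with TPM scaling (0.69).

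Of the 6 genes of REST protein turnover, 2 were called against MRC5 in DMS153, beside 50.4% of all genes, and 1 in H209, beside 47.9%. In DMS153 against MRC5, 2 were called lower and none higher: SKP1, a subunit of SCF ubiquitin ligases, at 119 ± 7.41 against 441 ± 14.9 FPKM, and the kinase CSNK1A1 at 37.0 ± 2.17 against 107 ± 5.40. Both were also called lower in DMS153 than in H209, where they averaged 314 and 98.1 FPKM. In that comparison 13.4% of all genes were called lower. In H209 against MRC5 only USP7, a deubiquitinase that stabilises REST, was called, at 72.4 ± 6.25 against 35.4 ± 3.09 FPKM (log2 difference 1.01, and 0.65 with median ratios). USP7 was also not called without H209 replicate 1, MRC5 replicate 1 or MRC5 replicate 2, at 0.925, 0.98 and 0.97. The list medians were -0.64 for DMS153 against MRC5, -0.18 for H209 against MRC5 and -0.23 for DMS153 against H209. The median for H209 turned to 0.03 with TPM scaling and 0.05 with scaling without small RNA and mitochondrial genes.

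Genes known from other work as REST targets were mostly higher in both lines with low REST. Of 35 such genes 34 were tested. In DMS153 against MRC5, 30 were called higher, beside 34% of all genes, and 1 lower, beside 16.4% (median 3.69, all genes 0.44). In H209 against MRC5 also 30 were called higher, beside 33%, and 1 lower, beside 14.9% (median 3.12, all genes 0.46). Most of these genes were under 1 FPKM in every MRC5 library. They passed the filter on low values only through the carcinoma lines in which they were high, so these counts are a description. CHGA, the granule protein chromogranin A, averaged 274 ± 66.2 FPKM in DMS153 and 356 ± 7.96 in H209, against at most 0.00456 in any MRC5 library. CHGB, chromogranin B, averaged 156 ± 43.2 in DMS153 and 95.5 ± 6.27 in H209, against 0.122 ± 0.0547 in MRC5. SCG2, secretogranin II, averaged 143 ± 25.6 FPKM in DMS153 against 0.502 ± 0.0807 in MRC5, and the synaptotagmin SYT4 averaged 48.9 ± 4.83 in H209 and was listed at 0 in every MRC5 library. CHGA and SYP, both on the target list, are also among the neuroendocrine markers above, which rose with these genes. How far the target list reflects that cell type was not tested.

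The 2 target genes with a whole RE1 core in the printed windows were both called higher in both lines. So were 30 of the 34 tested targets in each line, and 34% of all genes in DMS153 and 33% in H209. The other genes with a whole core were not examined, so this pair only illustrates and tells nothing about the element. SYN1 stood at 5.99, 6.42 and 6.66 FPKM in DMS153 and at 10.3 and 11.8 in H209, against 0.821, 0.795 and 0.824 in MRC5 (log2 differences of 2.02 and 2.73). GRIA2 stood at 9.69, 8.99 and 7.79 FPKM in DMS153 and at 6.72 and 5.37 in H209, against 0.000119, 3.05e-05 and 0.00458 in MRC5 (3.29 and 2.81). BDNF, a neurotrophin, was the one target called lower, at 0.127 ± 0.0583 FPKM in DMS153 and 0.101 ± 0.0235 in H209, against 61.9 ± 0.980 in MRC5 (log2 differences of -5.81 and -5.84).

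Between DMS153 and H209, 7 of the 34 targets were called higher, beside 13.8% of all genes, and 4 lower, beside 13.4% (median -0.18, all genes -0.04). The lower count was 2 with median ratios and 7 with a pseudocount of 0.1. In either direction 11 of 34 were called, beside 27.1% of all genes. CALB1, a calcium-binding protein of neurons, averaged 16.5 ± 4.71 FPKM in DMS153 and 0.0392 ± 0.0320 in H209, the sodium channel gene SCN2A 38.6 ± 2.99 and 2.68 ± 0.0719, and STMN2, a microtubule regulator of axons, 16.6 ± 3.40 and 0.666 ± 0.0110. In the other direction, the neuronal tubulin TUBB3 averaged 86.5 ± 5.38 FPKM in DMS153 and 211 ± 1.39 in H209, the scaffold gene MAPK8IP2 14.3 ± 0.674 and 33.9 ± 0.456, and the pacemaker channel gene HCN2 3.19 ± 0.592 and 8.15 ± 0.106. HCN2 was not called with median ratios, at -0.99. With TPM scaling 6 targets were called higher and 14 lower.

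**Figure D4:**
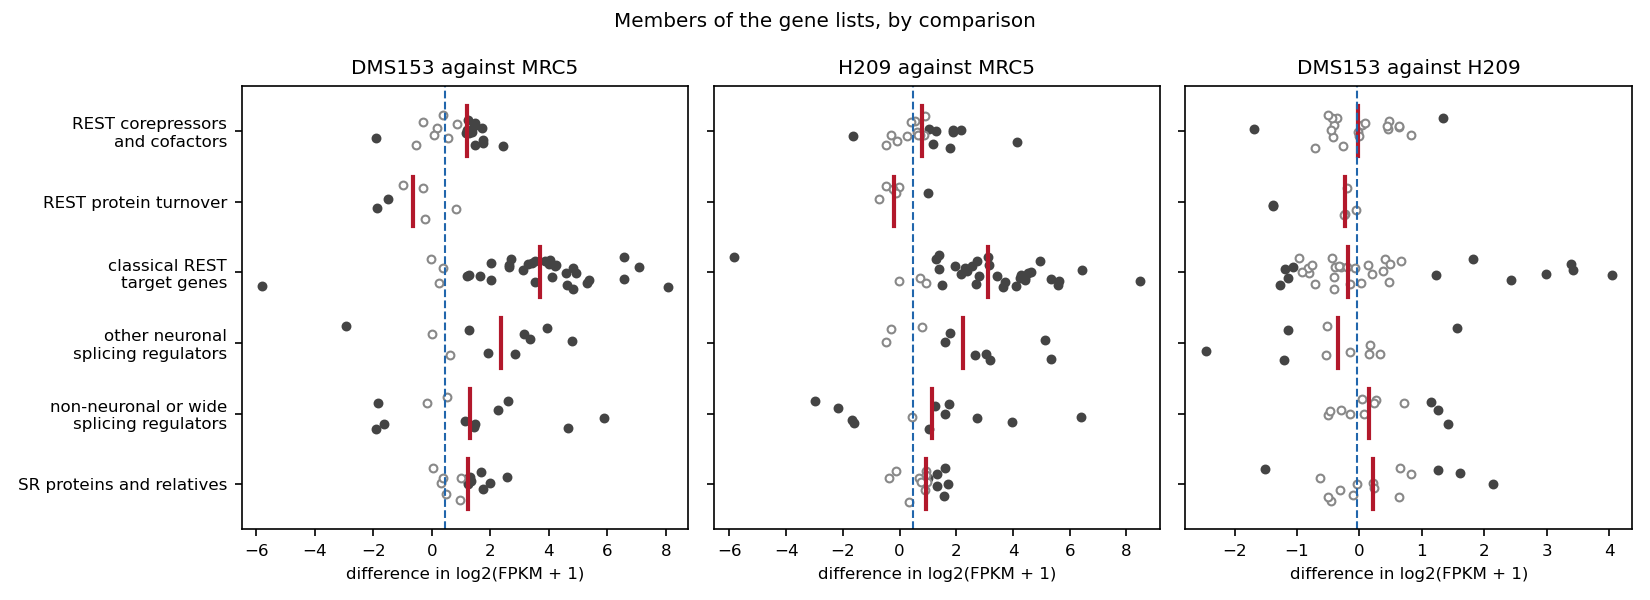
Difference in log2(FPKM + 1) of each tested member of 6 gene lists, by comparison; filled points were called, red bars mark the median of a list and the blue dashed line the median of all genes tested, and points are spread vertically only to separate them. The REST target list has medians of 3.69 and 3.12 against MRC5 and -0.18 between the carcinoma lines.

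Of 12 other regulators listed for neuronal splicing, 10 were tested, and 7 were called higher and 1 lower in DMS153 against MRC5 (median 2.38), 7 higher and none lower in H209 against MRC5 (2.24), and 1 higher and 3 lower in DMS153 against H209 (-0.34), or 5 lower with TPM scaling. Shares of all genes called higher and lower were, in the same order, 34% and 16.4%, 33% and 14.9%, and 13.8% and 13.4%. RBFOX2 and KHDRBS3 were called in none of the comparisons. SRRM3, RBFOX1, CELF3, CELF4, CELF5 and CELF6 passed the filter on low values only through the carcinoma libraries, so these counts are a description. The sum of 5 neuron markers was 64.7 to 65.7 FPKM in DMS153 and 83.3 to 85.4 in H209, against 4.92 to 6.46 in MRC5. In the same order, 2, 3 and 1 of the markers stood at 1 FPKM or more in every library. Most of the sum was MAP2 (means of 46.4, 68.7 and 5.49 FPKM) and GAD1 (17.7, 10.4 and 0.00845). RBFOX3, which is also on the splicing list (0.664, 0.116 and 0.353), and NEUROD6 stayed under 1 FPKM in every library. The part of these markers in the result was not tested. CELF3 averaged 26.9 ± 3.82 FPKM in DMS153 and 39.2 ± 2.85 in H209, against at most 0.00198 in any MRC5 library. CELF4, which like CELF3 binds GU-rich RNA in neurons, averaged 14.4 ± 1.58 in DMS153 and 34.7 ± 0.311 in H209, against 0.0128 ± 0.00210 in MRC5. MBNL3, a muscleblind protein known from placenta and muscle precursors, averaged 19.7 ± 3.55 in DMS153 and 17.6 ± 1.23 in H209, against 1.03 ± 0.139 in MRC5. RBM24, a splicing regulator of heart and skeletal muscle, was the gene called lower, at 1.76 ± 0.855 FPKM in DMS153 against 19.6 ± 1.15 in MRC5, and also lower than the 13.8 ± 0.107 in H209. RBFOX1, a regulator of neuronal and muscle exons, averaged 8.02 FPKM in DMS153 and 2.04 in H209, and CELF5 3.03 and 7.88, the last not called with median ratios, at -1.0.

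Splicing regulators of other tissues moved in both directions. Of 12 non-neuronal or widely expressed regulators, 7 were called higher and 3 lower in DMS153 against MRC5 (median 1.29), 7 higher and 4 lower in H209 against MRC5 (1.13), and 3 higher and none lower in DMS153 against H209 (0.15). Shares of all genes called higher and lower were, in the same order, 34% and 16.4%, 33% and 14.9%, and 13.8% and 13.4%. ESRP1, a regulator of epithelial exons, averaged 58.5 ± 0.396 FPKM in DMS153 and 83.6 ± 3.07 in H209, against at most 0.000816 in any MRC5 library. ESRP2 averaged 24.7 ± 1.85 in DMS153 and 14.6 ± 0.0967 in H209, against 0.0111 ± 0.00298 in MRC5, and RBM47, another epithelial regulator, 5.93 ± 0.137 and 6.76 ± 1.05 against 0.151 ± 0.0471. The epithelial markers moved with them, with sums of 1067 to 1160 FPKM in DMS153 and 855.5 to 857.2 in H209, against 94.6 to 105.6 in MRC5, and their part in the result was not tested. ESRP1, ESRP2 and RBM47 passed the filter on low values only through the carcinoma libraries.

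The regulators called lower included QKI, at 16.3 ± 0.496 FPKM in DMS153 and 13.4 ± 0.101 in H209 against 64.5 ± 11 in MRC5, and MBNL1, at 21.7 ± 0.876 and 9.32 ± 1.48 against 80.2 ± 8.08. Both are known to set exon choice in mesenchymal or differentiated cells. CELF2 averaged 0.0491 ± 0.0302 FPKM in DMS153 and 0.0217 ± 0.00821 in H209, against 2.25 ± 0.137 in MRC5, and passed the filter only through the MRC5 libraries. The 3 called higher in DMS153 than in H209 were MBNL2 (33.3 ± 3.63 and 11.8 ± 0.0813 FPKM), PTBP3, the remaining PTB paralog (54.5 ± 3.94 and 22.4 ± 2.55), and MBNL1. None of these 3 was called with TPM scaling, at log2 differences of 0.81 for MBNL2, 0.62 for PTBP3 and 0.55 for MBNL1, and MBNL1 was not called without H209 replicate 2, at 1.0.

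Of 15 SR proteins and relatives, which serve splicing in most tissues, 9 were called higher in DMS153 against MRC5, beside 34% of all genes (median 1.23, all genes 0.44), and 6 in H209 against MRC5, beside 33% (0.92, all genes 0.46), and none lower in either. The DMS153 count was 4 with TPM scaling, and the H209 count was 3 with median ratios and 11 with quantile normalisation. SRSF4 averaged 221 ± 19.4 FPKM in DMS153 against 36.5 ± 4.15 in MRC5, and SRRM1, the widely expressed relative of SRRM4, 144.5 ± 5.42 against 35.3 ± 0.852. In H209, SRSF2 averaged 193.5 ± 18.1 FPKM against 58.5 ± 2.00 in MRC5. Between DMS153 and H209, SRRM1, SRRM2 and SRSF4 were called higher, with log2 differences of 2.13, 1.62 and 1.25, and SRSF3 lower, at -1.52. In that comparison 13.8% of all genes were called higher and 13.4% lower. With TPM scaling SRRM2 (0.97) and SRSF4 (0.61) were not called, and the list had 1 called higher and 4 lower.

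The tested genes nearest to REST over the 8 libraries, by Euclidean distance of centred log2(FPKM + 1), were IGDCC4, WWC2, EFNB1 and COL27A1, at distances of 0.303, 0.392, 0.422 and 0.424. For IGDCC4 the mean FPKM was 0.0644 in DMS153, 0.707 in H209, and 7.78 in the MRC5 libraries. Among the nearest to SRRM4 were VANGL2 (0.268), PTPN3 and STRBP, and nearest to PTBP1 were C22orf39 (0.0734), ARMC5, SELO and SNRPA1. The distances describe likeness over 8 libraries of 3 lines.

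The deposited domain lists placed the members differently in each line, from 1 Hi-C library per line and with no test. They hold 5023 domains in DMS153, 3987 in H209 and 3701 in MRC5, with median lengths of 240, 300 and 300 kb. REST, PTBP1 and ELAVL2 overlapped no listed domain in any line. RCOR1 lay across 3 domains in DMS153, with 2 domain ends inside the gene, and had 26.8% of its length in a domain in H209 and 0.7% in MRC5. Its start lay 1.0 kb from a domain end in DMS153 and MRC5, and 79.0 kb from one in H209. Domain ends fall on a grid of round coordinates much coarser than 1.0 kb, so that distance and the 0.7% lie within its step. SRRM4 overlapped no domain in DMS153, lay whole in a domain of 1280 kb in H209 and had 33.5% of its length in a domain of 320 kb in MRC5.

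NOVA1 lay whole in a domain in every line, of 220 kb in DMS153, 840 kb in H209 and 200 kb in MRC5, and in DMS153 a further domain of 400 kb overlapped its start. ELAVL4 had a domain end inside the gene in DMS153, 46.3 kb from its start and between domains of 460 and 260 kb, and lay whole in domains of 1820 kb in H209 and 1560 kb in MRC5. PTBP2 lay in a domain only in MRC5 (640 kb), NOVA2 in DMS153 (120 kb) and H209 (140 kb), and ELAVL3 in DMS153 (120 kb) and MRC5 (220 kb). Domains with the lowest scores were left out in an alternative, under 1.731 in DMS153, 1.688 in H209 and 1.864 in MRC5. Every NOVA1 domain fell under the cut, at 1.511 and 1.523 in DMS153, 1.657 in H209 and 1.543 in MRC5. So did the only RCOR1 domain in H209 (1.622) and in MRC5 (1.598), and that of 100 kb in DMS153 (1.561). The ELAVL4 domain of 460 kb in DMS153 (1.512) and the NOVA2 domain in H209 (1.616) did too. The other member domains lay above it.

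**Figure D5:**
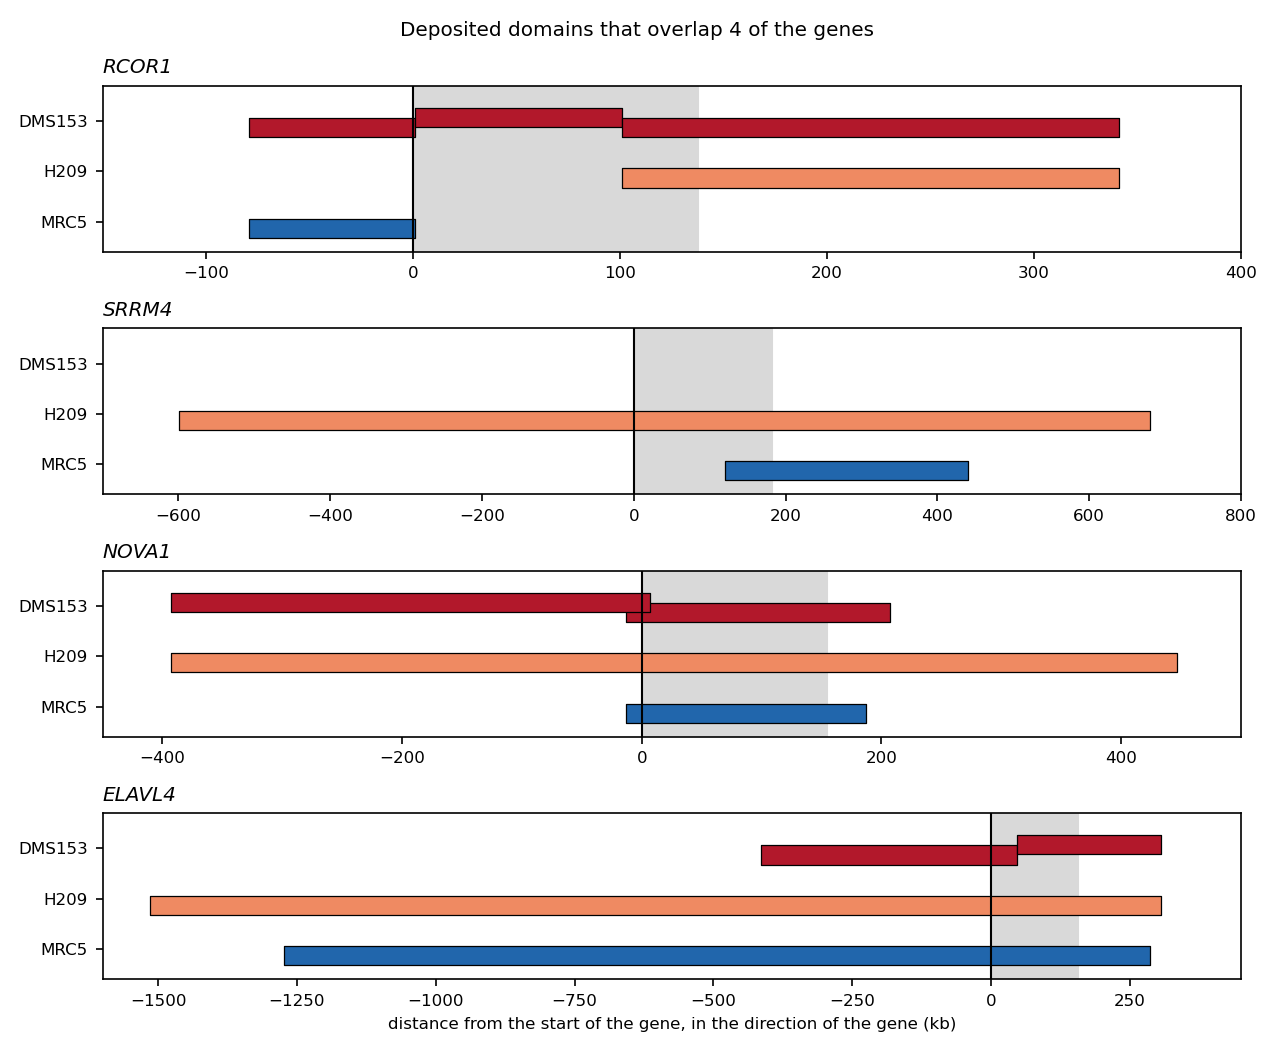
Listed Hi-C domains that overlap RCOR1, SRRM4, NOVA1 and ELAVL4 in DMS153, H209 and MRC5 (1 library each), as bars against the distance from the start of the gene in kb, in the direction of the gene; the grey band is the gene body, and overlapping domains of a line are offset vertically. In DMS153, RCOR1, NOVA1 and ELAVL4 have domain ends inside the gene and SRRM4 has no domain; RCOR1 has a domain end inside the gene in H209 and MRC5 too, as SRRM4 has in MRC5.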

How the data were processed

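RNA was measured in 8 libraries and chromatin domains in 3. The 10 genes, the gene lists and the tests were chosen with earlier results of these data known. Per the labels, RNA samples repeat the text written for Hi-C, so the sources used here do not give the RNA selection, strand or depth, and overlapping or antisense genes can share reads. In 3 libraries the RNA titles spell the line DM153 where its own field has DMS153, and the field was followed. Tools named in the submitters' processing notes are Cufflinks 2.2.0, TopHat2 2.1.0, HOMER 4.8 and Bowtie2, with the build hg19. FPKM values and their intervals were used as deposited, per the file headers. The deposited domain lists carry a score of unstated meaning, which was used only to leave out the domains with the lowest 10% of scores in an alternative.

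The analysis used R 4.3.3 and limma 3.58.1: log2(FPKM + 1), 1 mean per line over 8 libraries, 5 residual degrees of freedom, eBayes with a trend, and Benjamini-Hochberg adjustment over the 19066 genes tested. The fit was tested on simulated data. Named list genes are the called members with the 3 largest rises and 3 largest falls per list and comparison, beside all 10 members and the 4 genes nearest to REST, SRRM4 and PTBP1, of which 1 is not reported here. SYN1, GRIA2 and the genes whose call changed with scaling were named after their values were seen. Where a symbol had more than 1 identifier (TUBB3, CELF6 and SRSF8), the one of higher mean was used. ATP2B2, RBFOX3 and KHDRBS2 were not tested, being under the filter. Alternatives covered the pseudocount, the filter, scaling, the variance model, genes with a failed status, a replicate block and leaving out each library. Relative depth of the libraries, read from the steps between low values, was 0.945 to 1.43 times that of MRC5 replicate 1, except for DMS153 replicate 1, for which it could not be settled. Coordinates are in hg19, and promoter sequences are from RefSeq (GRCh38.p14), with 9 of 10 members matched.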

Additional observations from a re-analysis of the deposited data

Results flagged for a closer look

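In 4 members the difference from MRC5 was not the same in DMS153 and H209, as tested by the contrast of the carcinoma lines (limma, adjusted over all genes tested). RCOR1 (log2 difference -1.19), NOVA2 (-1.83) and ELAVL2 (-1.99) were lower in DMS153 than in H209, and PTBP2 (1.83) was higher. For each of the 4, all libraries of one line lay above all libraries of the other, in 3 against 2 libraries. The same held for REST, PTBP1, NOVA1, ELAVL3 and ELAVL4, which were not called. The share of all genes separated in this way was not counted, so the separation cannot be read as particular to the members. The share of summed FPKM in small RNA and mitochondrial genes also differed, at 46.3% to 48.9% in DMS153 and 12.9% to 13.3% in H209. NOVA2 and ELAVL2 passed the filter on low values only through the 2 H209 libraries in which they were high, so they had to differ, and they were not tested without either H209 library or with a filter over 3 libraries. With scaling that leaves the small RNA and mitochondrial genes out, the 4 calls were made as before. Groups of 2 or 3 libraries are too small for a test of single outlying libraries.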

How the results depend on the processing

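No member changed direction among called results under any alternative. The count of members called lower in DMS153 than in H209, 3, was 1 with a filter of 1 FPKM in at least 3 libraries and 6 with TPM scaling, and 1 to 3 when each library was left out, because NOVA2 and ELAVL2 fall under the filter without either H209 library. TPM scaling called 6630 of all genes lower in DMS153 than in H209, against 2547, and the cause was not tested. Of 294 repeats of the counts and of the PTBP ratio, these 5 moved past 1.5 times and 289 did not. Among single members, RCOR1 and PTBP2 in H209 against MRC5 lost the size of a call with median ratios (0.82 and 0.80) and quantile normalisation (0.75 and 0.73), and smaller pseudocounts or TPM scaling added calls for NOVA2, ELAVL2, REST, PTBP1 and ELAVL3, given beside each result. The median gene of H209 against MRC5 was 0.19 with median ratios and 0.10 with quantile normalisation, against 0.46, and that of DMS153 against H209 was -0.59 with TPM scaling, against -0.04. The lists and the named list genes were put through the same alternatives after seeing the data, and 24 of 756 list counts moved past 1.5 times and 14 of 1365 gene values lost their call. With the replicate number as a block, 5 members were called higher and 1 lower in DMS153 against MRC5, 9 and 1 in H209 against MRC5, and 1 and 3 in DMS153 against H209, as without it. Whether the numbers pair the libraries was not settled. Deviations of same-numbered libraries correlated at 0.01, 0.08 and 0.09 for number 1, and at 0.04, 0.07 and 0.12 for number 2. For number 3 the correlation was -0.01. Libraries of different number correlated at -0.12 to 0.05, and not every library correlated best with its own number. Leaving out the domains with the lowest 10% of scores moved 8 of 27 distances of a gene start to a domain end. Every NOVA1 domain and the only RCOR1 domain in H209 and in MRC5 had scores under that cut. Read counts were not used here, so depth limits are known only from the deposited intervals, and values near 0 in MRC5 set no ratio.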
